A study of Oryctolagus cuniculus with 3 samples.

Results

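Transcript assembly from sequencing reads yields loci that a genome annotation describes poorly or not at all. In the rabbit cumulus-oocyte complex, the oocyte with the somatic cumulus cells around it, 3233 such loci were measured, out of 39681 rows in the gene table. They are the rows with an assembler identifier (MSTRG), without a RefSeq transcript accession (NM, XM, NR or XR), and absent from the deposited table of long non-coding RNAs. Of 26658 assembled rows, 12874 had no RefSeq transcript and 9641 of these were in the long non-coding table.

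The complexes came from the ovaries of IRA does, 150 in the whole study and 35 days of age at its start, which spent 4 weeks in rooms with controlled ammonia. The groups were LAC (NH3 at 10 ppm), HAC (30 ppm) and the control group CG (under 3 ppm), with 1 library each; the labels do not say how many animals were pooled in a library. Ribosomal RNA was depleted and the second cDNA strand was marked with dUTP. The comparison made here is LAC against CG. It has no replicate check: every difference below is between 2 libraries, and no p-value can be given.

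The 2 libraries held 68523767 estimated counts in LAC and 78461882 in CG. The gene tables filed for LAC and HAC were identical in every cell and both headed LAC, so gene-level values of HAC are not analysed here. The counts of that table equalled coverage × length / 75, within rounding, at 100% of 8638 single-transcript loci of the LAC transcript section, against 0.910% of 8795 loci of the HAC section. Its highest FPKM, 39491.8, was that of the HAC statistics block, whereas the LAC block gave 86393.9. The label LAC is therefore uncertain for these values. Oocyte markers differed between the libraries: 31 of 31 measured genes of a list with ZP3 and DDX4 were lower in LAC, with a summed level of 1745 CPM (counts per 1e6 scaled counts) in LAC and 8748 CPM in CG. A list of 21 granulosa and cumulus genes summed to 18908 CPM in LAC and 19004 CPM in CG. Of 23 stroma and extracellular matrix genes, 9 were higher and 2 lower in LAC (median 0.38), and they summed to 1936 CPM in LAC and 1741 CPM in CG. Of 13 blood and endothelium genes, 2 were higher and 3 lower. Their median was 0.30, although their sum was lower in LAC, at 38.5 CPM in LAC and 117 CPM in CG. In bulk RNA, fewer cells of a type and less RNA per cell cannot be told apart.

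The name "outside RefSeq" held for only some of the loci. Annotated gene entries without a transcript accession made up 1750 of them, mostly LOC-numbered genes, and 97 were annotated transfer RNA genes. The remaining 1386 were known from assembly alone, 508 with a strand and 878 without one. By LOC number in the RefSeq annotation of the newer assembly mOryCun1.1, 849 of the 1750 entries are pseudogenes, 183 are protein-coding, 1 is a long non-coding RNA and 1 a miscellaneous RNA. The other 716 had no entry there. Pseudogenes of the processed kind are copies of an mRNA inserted back into the genome, and they arise most often from abundant transcripts. Transfer RNAs carry amino acids to the ribosome and are shorter than the fragments selected for these libraries. Loci next to or inside a gene can be part of that gene's own transcript, an antisense transcript, unspliced RNA or a separate unit, and the counts do not separate these.

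Levels are given as CPM after scaling by the trimmed mean of M values (TMM), whose factor was 0.982 for LAC over CG. CPM is not per length, so it gives a locus's share of the library. Differences are LAC minus CG in log2(CPM + 1), which understates the change of low loci. A locus was counted as higher or lower when the difference reached 1 and 10 counts or more were present in the higher library. Intervals for folds are exact binomial at 95% and cover counting error only, taking 2 counts as 1 read.

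The loci held 9.03% of all counts in LAC and 6.81% in CG. A few of them made that difference in share. Without the 10 most counted loci the share was 2.67% in LAC and 2.63% in CG. The 3 most counted loci alone held 57.8% of the counts of the whole set in LAC and 50.03% in CG. Assembled loci with a strand held 7.38% of all counts in LAC and 5.13% in CG. Annotated gene entries held 1.15% in LAC and 1.23% in CG, and assembled loci without a strand 0.501% in LAC and 0.458% in CG.

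**Figure D1:**
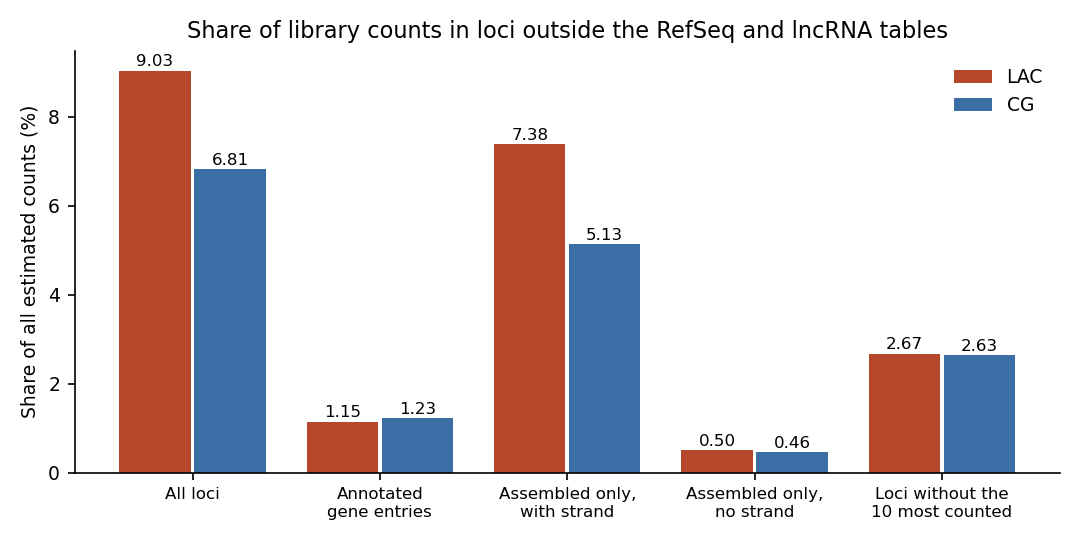
Share of all estimated counts (%, vertical axis) held by the loci in the LAC and CG libraries, for the whole set, for 3 of its classes and without the 10 most counted loci; each bar is 1 library. The whole set held 9.03% in LAC and 6.81% in CG, and without the 10 most counted loci the bars stood at 2.67% in LAC and 2.63% in CG.

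Most loci were low. In the higher library, 61.4% of the 3233 loci reached 1 CPM, 18.5% reached 10 CPM, 71 loci reached 100 CPM and 8 reached 1000 CPM. At 303 loci both libraries had 0 counts.

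Among the most counted loci, MSTRG.10917 (NC_013680.1, 42739126 to 42739811, minus strand, build OryCun2.0) had 1653088 counts in LAC and 1123927 in CG. That is 24343 CPM in LAC and 14196 CPM in CG, 1.71-fold higher in LAC (interval 1.71 to 1.72). It spans 686 bases and begins 240 bases upstream of the coding row LOC100341622, which had 83.2 CPM in LAC and 73.8 CPM in CG. The deposited name of the locus, ICK, belongs to a neighbouring gene with 107 CPM in LAC and 84.8 CPM in CG. Either neighbouring gene thus held far fewer counts than the locus between them.

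MSTRG.16853 (NC_013685.1, 54352814 to 54371537, plus strand) had 19897 CPM in LAC and 8454 CPM in CG, a 2.35-fold difference (interval 2.34 to 2.36). It is the one of the 10 most counted loci that passed the size rule, with a difference of 1.23. It lies within the span of a minus-strand row that the files name EAPP and SNX6, which had 1784 CPM in LAC and 622 CPM in CG, a difference of 1.52. Both rows of the pair were higher in LAC. The nearest coding row, SNX6 at a distance of 6709 bases, was not, with 57.2 CPM in LAC and 72.2 CPM in CG.

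MSTRG.2 (NC_001913.1, 2656 to 17245, plus strand) covers most of the mitochondrial genome and went the other way, with 8440 CPM in LAC and 11137 CPM in CG. The minus-strand row over the same span, MSTRG.1, had 10070 CPM in LAC and 12845 CPM in CG and is in the long non-coding table. Mitochondrial transcripts encode parts of the respiratory chain, together with the ribosomal and transfer RNAs that translate them. Pooled over both strands, the difference was -0.37.

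MSTRG.26630, on an unplaced scaffold without a coding gene (NW_003162254.1, 990 to 5674), had 3902 CPM in LAC and 2408 CPM in CG. On scaffold NW_003159740.1, MSTRG.25290 and MSTRG.25292 lie on opposite strands of one stretch inside LOC108176098. MSTRG.25290 had 2023 CPM in LAC and 1562 CPM in CG, and MSTRG.25292 had 1089 CPM in LAC and 565 CPM in CG. The coding row around them had 4279 CPM in LAC and 5774 CPM in CG, so these loci and their surrounding row differed in opposite directions. Other rows over the stretch went both ways. MSTRG.25288, on the plus strand, had 7397 CPM in LAC and 8682 CPM in CG. MSTRG.25289 (763 CPM in LAC, 1024 CPM in CG) and MSTRG.25291 (116 and 150 CPM) were lower too. MSTRG.25293, partly over the stretch, was higher, with 196 CPM in LAC and 47.6 CPM in CG. MSTRG.25290 and MSTRG.25292 each share over 50% of their span with other rows, and pooled with them the difference was 0.27. That pool holds neither the coding row nor MSTRG.25288.

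MSTRG.3715 (NC_013671.1, 50511315 to 50560129, plus strand) lies opposite SLIT3, which encodes a secreted guidance ligand of ROBO receptors. MSTRG.3715 had 915 CPM in LAC and 464 CPM in CG, a difference of 0.98. SLIT3 itself had 1860 CPM in LAC and 1235 CPM in CG, a difference of 0.59. MSTRG.9110 had 896 CPM in LAC and 585 CPM in CG. MSTRG.11176, whose deposited description names thymosin beta (TMSB10), an actin-binding peptide, had 1313 CPM in LAC and 1242 CPM in CG.

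MSTRG.9165 carries a description of the 60S ribosomal protein RPL23A. Its assembled span of 165378 bases is far longer than such a gene and lies opposite CDH2, the gene of N-cadherin. MSTRG.9165 had 1289 CPM in LAC and 809 CPM in CG, whereas CDH2 had 884 CPM in LAC and 768 CPM in CG. Which part of the span the reads came from was not analysed here.

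The size rule was applied to the 2748 loci with enough counts. Of these, 128 (4.66%) were higher and 206 (7.50%) lower in LAC. In either direction 334 passed. Over all rows with enough counts 4.23% were higher, 8.51% lower and 12.7% either. Over coding rows 1.89% were higher, 11% lower and 12.9% either. Among the assembled rows that are listed as long non-coding, 8.32% were higher, 5.75% lower and 14.1% either. The shares of the loci were near those of the whole table. Their median difference was 0.11, against 0.01 over all rows, -0.14 over coding rows and 0.33 over the assembled rows in the long non-coding table. Among the 597 loci with at least 10 CPM in the higher library, 58 (9.72%) were higher and 96 (16.1%) lower in LAC. At that level 4.56% of all rows were higher, 12.2% lower and 16.7% either, and 1.7% of coding rows were higher, 12.3% lower and 14% either. Of 1450 assembled rows listed as long non-coding, 19.6% were higher and 9.38% lower. The split between directions depended on scaling. With the TMM factor taken from coding rows alone, 191 were higher and 176 lower, which makes 52.0% of the calls higher, against 38.3% with the factor from all rows. That scaling raised the median of all rows to 0.13 and of the loci to 0.21.

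**Figure D2:**
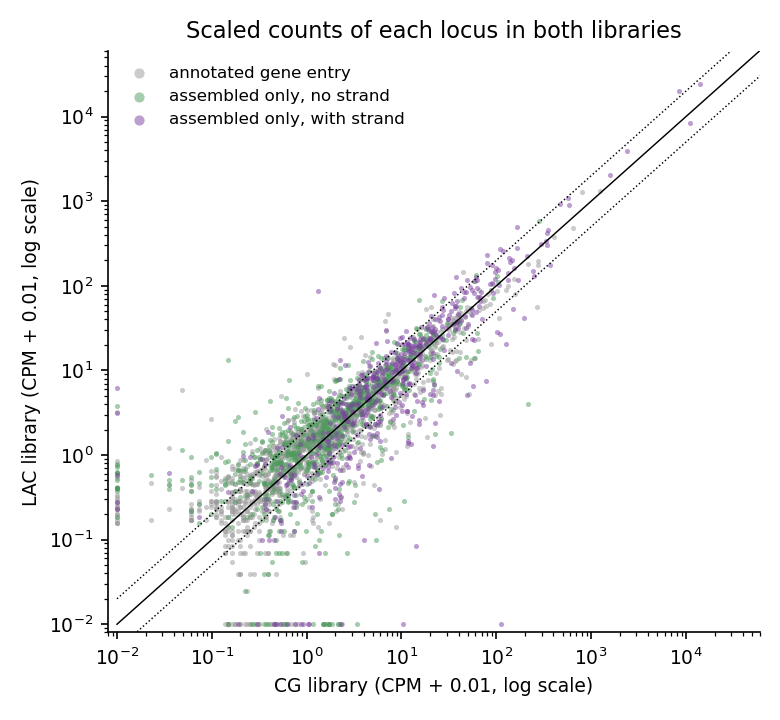
Level of each locus with at least 10 counts in LAC (vertical axis) and CG (horizontal axis), as CPM + 0.01 on log scales; points are loci coloured by class (transfer RNA genes not drawn), the solid line marks equal levels and the dotted lines a 2-fold difference. The scatter widens toward low levels, and points on either edge are loci with 0 counts in 1 library.

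By class, the number that passed went with the level of the class; the pseudocount shrinks differences of low loci. Of 502 assembled loci with a strand, 37 were higher and 71 lower (14.1%) in LAC, at a median difference of 0.09. Of 866 without a strand, 55 passed in each direction, and the median was 0.18. Annotated entries numbered 1371 with enough counts, of which 36 were higher and 80 lower (median 0.09). The median level in LAC was 6.49 CPM with a strand, 1.94 CPM without one and 1.44 CPM for annotated entries. Among loci with at least 10 CPM in the higher library, 28 were higher and 39 lower of 243 with a strand, 16 and 18 of 133 without one, and 14 and 39 of 221 annotated entries. Spans went with level in the same way. Of 261 assembled-only loci spanning at least 5000 bases, 35 were higher and 44 lower, at median levels of 18.8 CPM in LAC and 15.3 CPM in CG. Of 302 under 500 bases, 4 were higher and 10 lower, at median levels of 0.626 CPM in LAC and 0.512 CPM in CG, where the pseudocount leaves little room for a difference of 1. Among loci with at least 10 CPM in the higher library, 34 of 192 long loci (17.7%) and 2 of 11 short loci (18.2%) were higher, and 28 long and 0 short loci were lower.

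On unplaced scaffolds, 77 of 603 loci (12.8%) were lower in LAC, against 129 of 2145 (6.01%) on assembled chromosomes. Coding rows showed the other order, with 9.27% lower on scaffolds and 11.7% on chromosomes. This contrast has no test with 1 library per group.

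The largest difference was at MSTRG.5023 (NC_013672.1, 45699487 to 45722700, plus strand), which had 0 counts in LAC and 8905 in CG. With a floor of 3 reads in LAC, it was 1273-fold lower there, and the counting interval began at 1035-fold. The locus lies within GRIP1, the gene of a scaffold protein that binds glutamate receptors, on the opposite strand. GRIP1 had 491 CPM in LAC and 271 CPM in CG, and the adjoining minus-strand row MSTRG.5024 had 209 CPM in LAC and 177 CPM in CG. The rows on the gene's strand were thus somewhat higher where the opposite row had no count.

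MSTRG.5140 (NC_013672.1, 58358555 to 58361710, no strand) lies inside SYT1, the gene of synaptotagmin, a calcium sensor of vesicle release. It had 4.01 CPM in LAC and 217 CPM in CG, 54.2-fold lower in LAC (interval 45.8 to 64.7). SYT1 itself had 11.2 CPM in LAC and 15.3 CPM in CG. The stretch of 3156 bases held more counts in CG than the whole gene row around it.

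Some of the other large differences sat beside a row on the other strand that differed in the opposite direction. MSTRG.21584, 301 bases downstream of SAAL1, had 0.0736 CPM in LAC and 14.2 CPM in CG. MSTRG.21583 covers the same stretch on the plus strand and had 16.4 CPM in LAC and 7.79 CPM in CG. Their sum was 16.5 CPM in LAC and 22.0 CPM in CG, a difference of -0.40, so MSTRG.21584 no longer passed the rule when both strands were pooled. MSTRG.5233, 1675 bases downstream of MRPL42, had 0 counts in LAC and 825 in CG, 118-fold lower in LAC at the read floor (interval from 95.4). Its opposite-strand neighbour MSTRG.5232 had 26.3 CPM in LAC and 8.02 CPM in CG. Reads mapped evenly to both strands of the genome in these libraries, 42.02% sense and 42.05% antisense in the LAC statistics and 42.78% and 42.85% in those of CG. Genes lie on both strands, so an even split does not tell whether counts are resolved by strand. Whether the counts of such pairs are so resolved is uncertain.

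Over the whole set, 50 loci overlapped another row by at least 50% of both spans, and 45 of these had enough counts. Of these, 11 were lower and 1 higher in LAC, which is 26.7% called, against 11.9% of the other loci. Over all rows with enough counts 12.7% were called and 8.51% were lower. The 12 calls are not all separate places, since MSTRG.12883 and MSTRG.12881 overlap each other and were both lower. These shares were neither matched for level nor tested. Pooled with the overlapping rows, 9 of the 12 kept their call in the same direction and 3 did not.

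MSTRG.12883 was among loci that were lower with their surroundings. Its span of 124793 bases (NC_013681.1, 122452527 to 122577319, plus strand) covers the shorter coding row LOC100347417, at 122472007 to 122474962. MSTRG.12883 had 7.51 CPM in LAC and 78.8 CPM in CG, 10.5-fold lower in LAC (interval 9.23 to 12.0). The coding row had 0.0147 CPM in LAC and 0.796 CPM in CG. The minus-strand row MSTRG.12882 had 6.64 CPM in LAC and 66.5 CPM in CG, and MSTRG.12885 had 5.21 CPM in LAC and 42.3 CPM in CG. MSTRG.12881, also one of the loci described here, had 3.33 CPM in LAC and 11.5 CPM in CG. Every one of the listed rows at this place with a count was lower in LAC.

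MSTRG.24536 (NW_003159561.1, 455881 to 456909, no strand) had 1.81 CPM in LAC and 33.6 CPM in CG. The next row, MSTRG.24537, had 6.60 CPM in LAC and 43.6 CPM in CG, whereas MSTRG.24535 on its other side had 8.66 CPM in LAC and 3.70 CPM in CG. The other loci among the 10 largest in this direction were MSTRG.26475 with 1.28 CPM in LAC and 21.5 CPM in CG, MSTRG.6659 with 0.280 CPM in LAC and 10.7 CPM in CG, and MSTRG.24813 with 1.78 CPM in LAC and 22.8 CPM in CG. These 3 lie over 10 kb from a coding gene or on a sequence without one. MSTRG.14384, an annotated entry (LOC100356472), had 5.26 CPM in LAC and 52.0 CPM in CG.

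In the other direction, MSTRG.15968 (NC_013684.1, 66554712 to 66560474, minus strand) had 86.6 CPM in LAC and 1.31 CPM in CG, 66.0-fold higher in LAC (interval 50.2 to 88.5). It carries the name of MFSD4A, a transporter-family gene downstream of which it lies, and overlaps the 3′ part of the row of ELK4, an ETS transcription factor, on the opposite strand. ELK4 had 131 CPM in LAC and 237 CPM in CG, and MFSD4A had 1.56 CPM in LAC and 2.67 CPM in CG. The locus therefore differed in the opposite direction from both genes. Because it overlaps ELK4 on the other strand, the uncertainty about strand given above holds for this pair too. Counts of the locus and ELK4 were not pooled, so its fold may not be that of the stretch.

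MSTRG.26127, 48 bases downstream of LOC103347140, had 13.3 CPM in LAC and 0.139 CPM in CG, which is 902 counts in LAC and 11 in CG. MSTRG.10408 (LOC103349709) had 24.5 CPM in LAC and 2.49 CPM in CG, and the minus-strand row MSTRG.10409 beside it had 32.1 CPM in LAC and 9.33 CPM in CG. MSTRG.20602 and MSTRG.4629, both described as RPL29 copies, had 46.7 and 19.0 CPM in LAC and 7.12 and 2.85 CPM in CG. MSTRG.14082 had 24.8 CPM in LAC and 3.70 CPM in CG, although the adjoining MSTRG.14081 of the same LOC number had 4.23 CPM in LAC and 9.36 CPM in CG. The remaining loci of this group, MSTRG.13615, MSTRG.17894, MSTRG.21721 and MSTRG.14207, were between 5.72-fold and 6.32-fold higher in LAC.

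**Figure D3:**
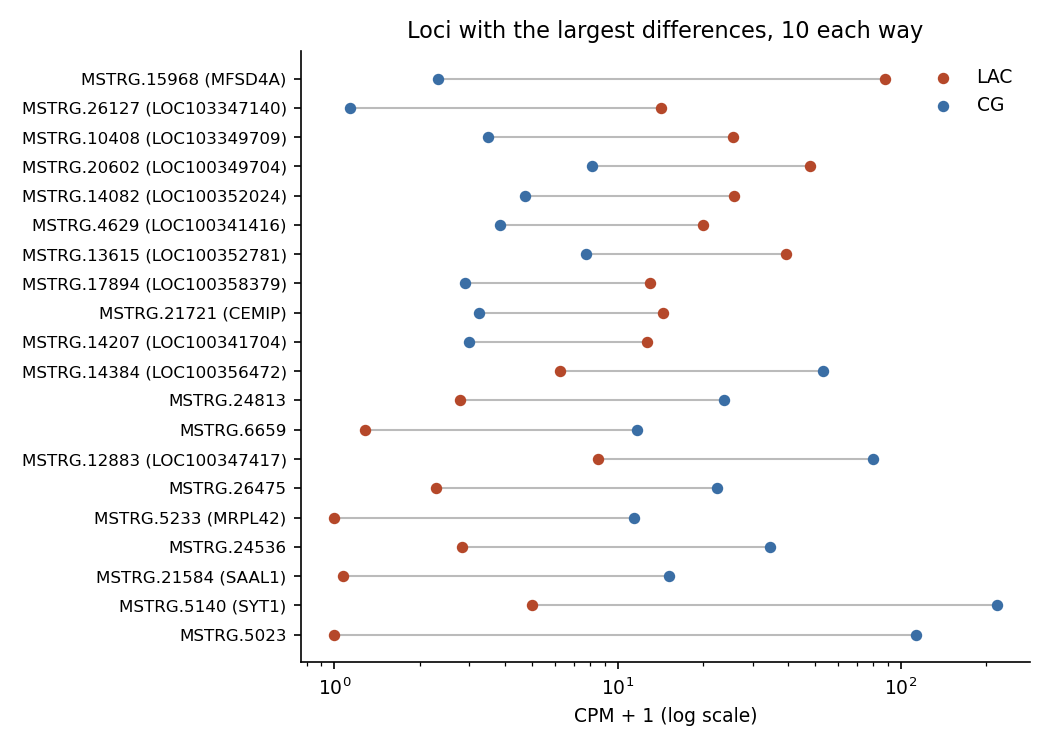
Level in LAC and CG (CPM + 1, log scale) of the loci with the largest differences, 10 in each direction, among those with at least 10 CPM in the higher library; each point is 1 library and names in brackets are those the files give. MSTRG.5023 and MSTRG.5233 stand at 0 CPM in LAC, and MSTRG.15968 stands at 86.6 CPM in LAC and 1.31 CPM in CG.

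Many loci known from assembly alone lay just past the ends of coding genes. Of 1386 such loci, 692 were within 10 kb downstream of their nearest coding gene and 88 within 10 kb upstream. Among those without a strand, 535 were downstream and 59 upstream. The median distance of these 535 was 809 bases (quartiles 419 and 1382), 93.5% lay within 2000 bases, and 476 of them (89.0%) bear that gene's name in the files. Of the 157 downstream loci with a strand, 134 were on the gene's strand and 23 on the other, at a median distance of 243 bases.

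This position is tied to how the loci were chosen. The long non-coding table lists assembly classes i, j, o, u and x and a code read here as =. The class that denotes a fragment just past a reference transcript is not among them. Within 2000 bases downstream there were 639 assembled-only loci and 100 rows of the long non-coding table. Between 2000 and 10000 bases downstream there were 53 assembled-only loci and 496 rows of that table. Missing strands were common in both sets, at 878 of 1386 and 6444 of 9641.

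**Figure D4:**
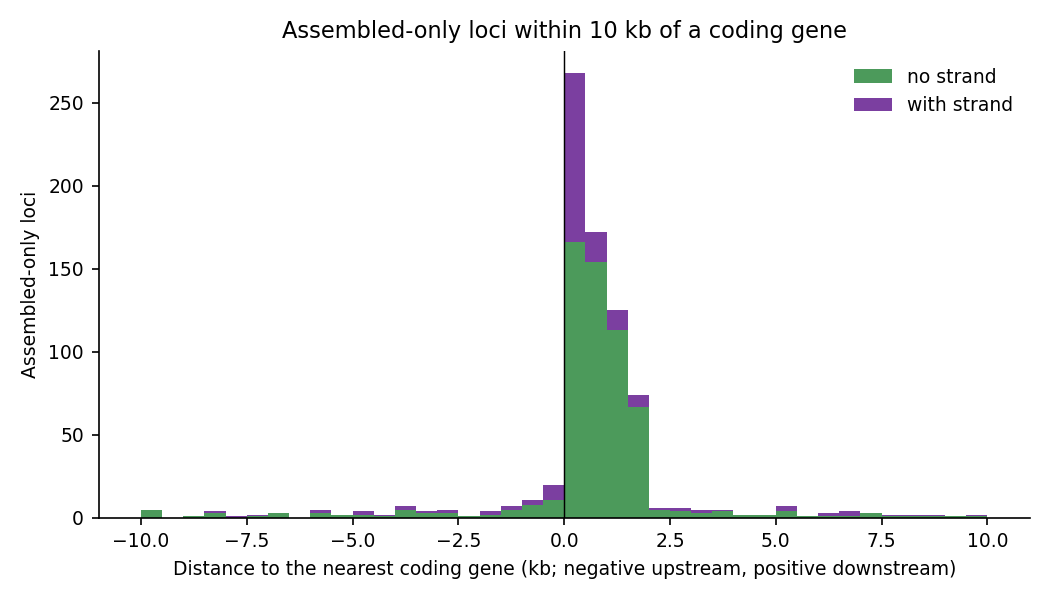
Number of assembled-only loci (vertical axis, bins of 0.5 kb) by distance to the nearest coding gene in kb, negative upstream and positive downstream, with loci with and without a strand stacked. Loci crowd within 2 kb downstream, and 692 lie within 10 kb downstream against 88 upstream.

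The differences of downstream loci went part of the way with those of their genes. Across 665 pairs with enough counts, Spearman's rho was 0.42 (Pearson 0.44). It was 0.44 over 515 pairs without a strand and 0.38 over 150 with one. These are descriptions: the pairs share both libraries and their depth, pairs on one gene share that gene, and the reads of a gene's end may be divided between both rows. Rows of the long non-coding table gave 0.42 over 97 pairs within 2000 bases downstream, against 0.45 over 619 pairs for the loci, and 0.32 over 546 pairs within 10 kb. Assembled-only loci within 10 kb upstream gave 0.30 over 78 pairs (Pearson 0.40), so the relation was not particular to the downstream side. Assembled-only loci over 10 kb from a coding gene gave 0.12 over 248 pairs, and annotated entries gave 0.11 over 1212 pairs.

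Where the gene was lower in LAC by the size rule, the downstream locus was lower too at 18 of 61 pairs (29.5%). Where the gene was neither, the locus was lower at 15 of 595 (2.52%). Where the gene was higher in LAC, the locus was higher at 2 of 9 pairs. Shares of lower loci beside a lower gene were as high at other places, with 6 of 17 pairs (35.3%) over 10 kb from the gene and 3 of 9 (33.3%) upstream. Beside genes that were neither, 38 of 226 loci (16.8%) over 10 kb away and 4 of 67 (5.97%) upstream were lower.

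The pairs lower together are given with examples picked after their values were seen. MSTRG.272, 1576 bases downstream of EQTN, the gene of an acrosomal membrane protein of sperm, had 2.24 CPM in LAC and 10.3 CPM in CG. The gene row, which the files name EQTN and LOC103345755 together, had 50.2 CPM in LAC and 193 CPM in CG. MSTRG.6059, 700 bases downstream of ZP3, the gene of a glycoprotein of the egg coat, had 0.0589 CPM in LAC and 1.55 CPM in CG, against 31.7 CPM in LAC and 145 CPM in CG for ZP3. MSTRG.13121, 549 bases downstream of LIN28A, the gene of an RNA-binding protein that blocks let-7 maturation, had 1.13 CPM in LAC and 6.26 CPM in CG. LIN28A itself had 0 CPM in LAC and 1.14 CPM in CG, so the downstream locus held more of the counts than the gene's own row. The summed oocyte list, given above, was lower in LAC as well, and its part in these differences was not tested.

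Further pairs were lower together. MSTRG.1199 past PGM2L1, an enzyme that makes glucose bisphosphate, had 6.74 CPM in LAC and 21.9 CPM in CG. MSTRG.14806 past TACR3, the neurokinin B receptor, had 6.94 CPM in LAC and 22.1 CPM in CG. TACR3 itself had 22.9 CPM in LAC and 65.6 CPM in CG. MSTRG.4144 past PLEKHF2 was nearly level with its gene, with 14.0 CPM in LAC and 40.3 CPM in CG, against 13.2 CPM in LAC and 45.2 CPM in CG for PLEKHF2. MSTRG.17024 past GCH1, the first enzyme of tetrahydrobiopterin synthesis, had 3.27 CPM in LAC and 13.4 CPM in CG. MSTRG.8704 past IL17RD, a receptor that dampens FGF signalling, had 7.51 CPM in LAC and 21.5 CPM in CG.

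Both pairs that were higher together in LAC lay close to their gene. MSTRG.21721, 181 bases past CEMIP, a gene needed to break down hyaluronan, had 13.4 CPM in LAC and 2.24 CPM in CG. The gene row, named CEMIP and LOC108175485 together, had 431 CPM in LAC and 77.6 CPM in CG. Hyaluronan is the main polymer of the expanding cumulus matrix. MSTRG.4299, 876 bases past SNTB1, the gene of a syntrophin of the dystrophin complex, had 13.8 CPM in LAC and 4.82 CPM in CG, while SNTB1 had 190 CPM in LAC and 80.6 CPM in CG.

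At 2 pairs the locus and the gene passed in opposite directions. MSTRG.16946, 913 bases past POLE2, a DNA polymerase subunit, had 4.29 CPM in LAC and 0.404 CPM in CG, whereas POLE2 had 6.97 CPM in LAC and 18.2 CPM in CG. MSTRG.3547, 6735 bases past PDGFRB, a receptor of pericytes and stroma, had 0 CPM in LAC and 2.31 CPM in CG, at least 26.2-fold lower in LAC, whereas PDGFRB had 9.95 CPM in LAC and 3.86 CPM in CG.

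**Figure D5:**
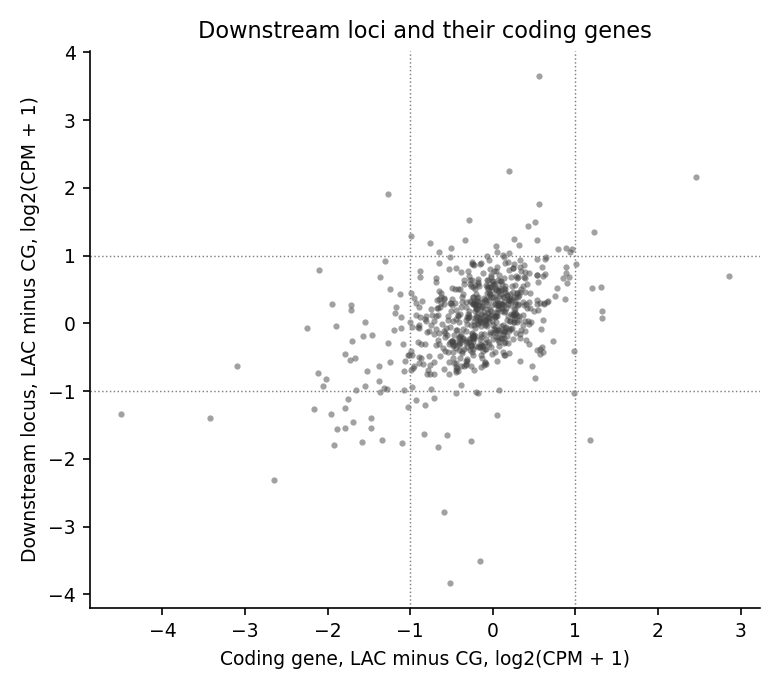
Difference of each downstream assembled-only locus (vertical axis) against that of its coding gene (horizontal axis), both LAC minus CG in log2(CPM + 1), for 665 pairs; dotted lines mark the size rule of 1. The points slope upward with wide scatter (Spearman's rho 0.42), and 18 pairs lie lower in LAC on both axes.

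Assembled-only loci inside coding genes had medians above 0. For comparison, 4.23% of all rows were higher and 8.51% lower (median 0.01), and 8.32% of assembled rows listed as long non-coding were higher and 5.75% lower (median 0.33). On the opposite strand, 12 of 110 were higher and 1 lower in LAC (median 0.45). On the same strand, 5 of 40 were higher and 3 lower (median 0.50), and without a strand 6 of 67 were higher and 1 lower (median 0.34). Against the difference of the surrounding gene, Spearman's rho was 0.52 on the opposite strand (Pearson 0.21, 110 pairs), 0.39 on the same strand (Pearson 0.25, 39 pairs) and 0.10 without a strand (Pearson 0.08, 64 pairs). By the size rule, none of 4 opposite-strand loci was lower beside a lower gene, and 1 of 7 was higher beside a higher gene. The medians are near that of the listed long non-coding rows, and differences between these sets were not tested. Annotated entries inside coding genes had medians of 0.19 over 441 on the opposite strand and 0.14 over 276 on the same strand. Spliced reads made up 16.23% of valid reads in the LAC statistics, 19.89% in those of HAC and 22.01% in those of CG. The part of unspliced RNA in the levels inside genes was not tested.

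Of 291 assembled-only loci over 10 kb from a coding gene, 37 (12.7%) were higher and 52 (17.9%) lower in LAC (median 0.12). Of 59 on sequences without a coding gene, 3 (5.08%) were higher and 16 (27.1%) lower (median -0.24). Of 439 annotated entries over 10 kb away, 13 (2.96%) were higher and 49 (11.2%) lower. Over all rows the shares were 4.23% and 8.51%, and the difference between places was not tested.

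Few loci lay near genes of the cell-type lists: 3 at oocyte genes, 2 at granulosa and cumulus genes, 2 at stroma genes and 1 at a blood or endothelium gene. MSTRG.6059 at ZP3 is given above. MSTRG.1989, 470 bases upstream of ZAR1, an oocyte factor needed at the egg-to-embryo transition, had 0.0589 CPM in LAC and 0.606 CPM in CG, which is 4 counts in LAC and 48 in CG. ZAR1 had 10.6 CPM in LAC and 50.5 CPM in CG. The deposited name of MSTRG.1989 is that of SLC10A4, the gene that ends on its other side. SLC10A4 had 0.191 CPM in LAC and 0.657 CPM in CG. MSTRG.10255, inside the germ-cell helicase gene DDX4, had 0 counts in both libraries. Beside the cumulus genes, MSTRG.7490 at SERPINE2, a protease inhibitor, had 9.29 CPM in LAC and 9.38 CPM in CG. MSTRG.11322 past GJA1, the gap-junction protein connexin 43 gene, had 1.24 CPM in LAC and 0.657 CPM in CG. Of the remaining 3, MSTRG.3547 is given above, MSTRG.7425 inside FN1, the fibronectin gene, had 0 counts in both, and MSTRG.2297 at MSR1, a scavenger receptor gene of macrophages, had 0.412 CPM in LAC and 0.455 CPM in CG.

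Annotated entries often resembled copies of abundant mRNAs, by their deposited protein descriptions, which 1735 of 1750 carried. The families and their parent genes were picked after the descriptions and values had been seen. Descriptions of ribosomal proteins, the structural proteins of the ribosome, could be tied to 47 parent genes at 203 loci with enough counts. These loci had a median of 0.17, 6 being higher and 6 lower in LAC, and their parents had a median of 0.09. Across these loci the copy's difference did not go with that of its parent (rho 0.01). In 24 other families with 137 loci, 1 locus was higher and 11 lower in LAC. The median was -0.03 for these loci and -0.28 for their parents (rho 0.21). Over all rows with enough counts, 4.23% were higher and 8.51% lower, and differences from these shares were not tested. Multi-mapped reads made up 26.99% of valid reads in the LAC statistics, 26.07% in those of HAC and 25.41% in those of CG, and the sources used here do not say how such reads were divided between a gene and its copies. Values of single copies are uncertain for that reason.

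The 7 GAPDH-like loci, named for the glycolytic enzyme glyceraldehyde-3-phosphate dehydrogenase, summed to 1060 CPM in LAC and 1477 CPM in CG. GAPDH itself had 702 CPM in LAC and 920 CPM in CG, fewer counts than its copies together in either library. The largest copy, MSTRG.13938, had 477 CPM in LAC and 645 CPM in CG. The 8 loci like EEF1A1, the elongation factor that brings transfer RNA to the ribosome, summed to 601 CPM in LAC and 808 CPM in CG, beside 6642 CPM in LAC and 6908 CPM in CG for the gene. One of them, MSTRG.7173 (LOC100345757), had 56.0 CPM in LAC and 271 CPM in CG, a difference of -2.26, although EEF1A1 differed by -0.06.

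In some families the copies and the parent differed in opposite directions while their sum was close. The RPL27-like loci summed to 87.7 CPM in LAC and 166 CPM in CG, and RPL27 had 166 CPM in LAC and 77.0 CPM in CG. Together they made 254 CPM in LAC and 243 CPM in CG. The RPL29-like loci summed to 90.9 CPM in LAC and 31.3 CPM in CG, and RPL29 had 353 CPM in LAC and 437 CPM in CG. Together they made 444 CPM in LAC and 468 CPM in CG. In both families the sum differed less than either of its parts.

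In other families the sum differed too. The largest of 3 loci like CCNC, the gene of cyclin C, was MSTRG.14143, with 20.4 CPM in LAC and 88.7 CPM in CG. CCNC itself went the other way, with 42.1 CPM in LAC and 34.0 CPM in CG. Copies and parent together made 63.6 CPM in LAC and 124 CPM in CG. The single KIF2C-like locus, MSTRG.26311, named for a kinesin that depolymerises microtubules in mitosis, had 23.7 CPM in LAC and 64.6 CPM in CG. KIF2C had 33.7 CPM in LAC and 91.7 CPM in CG, so copy and gene were lower in LAC in the same proportion. The HNRNPC-like loci, named for a nuclear RNA-binding protein, summed to 45.7 CPM in LAC and 108 CPM in CG, beside 306 CPM in LAC and 407 CPM in CG for HNRNPC.

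Transfer RNA genes were nearly silent in these libraries. Of 97, with a median span of 73 bases and 35 names, 56 had 0 counts in both and 9 reached 10 counts. Together they had 307 counts in LAC and 122 in CG. The highest, MSTRG.21993 (TRNAL-UAA), had 73 counts in LAC and 41 in CG. None of the 9 passed the size rule. At a selected fragment size above that of a transfer RNA, a low count does not show a low level in the cells.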

How the data were processed

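Ribosomal-RNA-depleted libraries were made and sequenced with reads of about 150 bases per the file headers and labels' protocols. Per the submitters' processing notes, fastp, HISAT2 and the build OryCun2.0 were used; versions and the assembler are not given there. The authors deposited estimated counts and FPKM per gene row, and a coverage signal per long non-coding transcript. The counts are not whole reads: they equal coverage × length / 75.

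Computed here: TMM scaling (trimming 30% of ratios and 5% of levels), CPM, log2 differences with a pseudocount of 1 CPM, exact binomial intervals, a floor of 3 reads, and overlap and distance on the files' coordinates, with SciPy 1.17.1, NumPy 2.4.6 and pandas 2.3.3 under Python 3.11.15. The procedure was tested on simulated data. Named loci were the 10 of highest mean CPM, the 10 largest differences in each direction with at least 10 CPM in the higher library, and up to 3 within 10 kb of a gene of each of 4 cell-type lists. Loci in neighbour pairs and copy families were picked after their values were seen. The members and lists were chosen with earlier results of these data known. No sequences are printed, since no genome of this build was used here. Groups had 1 library each, so no test was made.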

Additional observations from a re-analysis of the deposited data

How the results depend on the processing

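No paired analysis was possible because each group had 1 library. With 1 library per group, biological spread is unmeasured and every count of loci depends on the chosen fold. The number of loci higher and lower in LAC was 128 and 206. It became 433 and 397 with a pseudocount of 0.1 CPM, 46 and 82 with one of 5 CPM, 18 and 44 with a size rule of 2, and 58 and 96 among loci with at least 10 CPM in the higher library. Assembled-only loci alone gave 126 lower. The subsets hold fewer loci by construction. A larger pseudocount also lowers the number by construction, since it shrinks the differences of low loci. The share of counts in LAC was 8.34% without mitochondrial rows, 2.67% without the 10 most counted loci and 5.77% of summed FPKM, and in CG 5.83%, 2.63% and 4.47%. With TMM factors from coding rows alone, assembled loci with a strand had 63 higher in LAC and a median of 0.20, and those without a strand a median of 0.29. Shifts of a median by over 0.1 are given here. Under that scaling MSTRG.7490 turned to 0.15 and MSTRG.2297 to 0.011, both near 0 before, and the cause was not tested. The filter on at least 10 CPM, the pooling of overlapping rows and the assembled-only subset were chosen after seeing the data. Median-of-ratios factors and total counts left all 38 named differences on their side of the size rule. Other settings moved some across it. Deposited FPKM gave 0.88 for MSTRG.10408 and -0.28 for MSTRG.6059. A pseudocount of 5 CPM gave -0.37 for MSTRG.6059 and -0.55 for MSTRG.3547, and one of 0.1 CPM gave -2.15 for MSTRG.1989. Coding-row TMM gave 1.12 for MSTRG.25292 and 1.15 for MSTRG.3715, and pooling gave -0.40 for MSTRG.21584. Deposited gene FPKM stood in no constant relation to counts per length between loci and was used for these alternatives only. At MSTRG.6059, with 4 counts in LAC and 123 in CG, the counting interval of the fold ran between 7.06 and 224.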
